A study of Mus musculus with 8 samples.

Results

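The genes of iron uptake, storage and sensing were followed in activated mouse B cells that lack the translation initiation helicase EIF4A1. They were chosen by gene name as 10 of the 53242 genes in the deposited tables. Tfrc, Slc11a2, Slc40a1 and Slc25a37 move iron across membranes, Fth1, Ftl1 and Ncoa4 store or release it, Ireb2 and Aco1 sense it, and Hmox1 frees it from heme. Splenic B cells came from C57BL/6 mice aged 8 to 12 weeks, either Eif4a1 fl/fl Cd23-cre (4A1 KO) or Eif4a1 +/+ Cd23-cre (control). All of these mice therefore carried the Cre transgene, which acts from the splenic immature B cell onward. Both genotypes were grown for 24 h on irradiated (120 Gy) CD40LB feeder cells with 40 ng/ml IL4. The feeder cells are a line, not B cells, which expresses CD40 ligand and BAFF, and they were removed with H-2Kd antibody before RNA isolation. Each genotype had 4 libraries from individual mice. Replicates 1 and 3 were male and 2 and 4 female, while 1 and 2 made up batch A and 3 and 4 batch B. The study removed replicate 1 of both genotypes for reduced viability, so tests used replicates 2 to 4 (n = 3 per genotype) and values are shown for all 8.

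Iron enters most dividing cells as transferrin bound to the transferrin receptor, is reduced and leaves the endosome for the cytosol, and is then used in mitochondria for heme and iron-sulfur clusters or stored in ferritin shells of heavy and light chains. The iron regulatory proteins IRP1, encoded by Aco1, and IRP2, encoded by Ireb2, bind iron-responsive elements, short RNA stem-loops, when iron is scarce. Bound in a 3′ UTR such as that of Tfrc they protect the mRNA from decay, and bound in a 5′ UTR such as those of the ferritins they block its translation. Activated lymphocytes are known to depend on the transferrin receptor for the iron that growth and division need. The present libraries measured mRNA, so neither translation nor iron itself was seen.

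The stem-loops through which the iron regulatory proteins act were located in the GRCm39 transcripts and are shown because they set the members apart by class. The pattern searched was a C, 5 bases, the loop CAGTGN and 5 bases that pair with those before the loop, with G to T pairs allowed, on the transcript's own strand. Of 21593 canonical coding transcripts, 24 (0.111%) held it in the 5′ UTR and 124 (0.574%) in the 3′ UTR. It was found in 4 members, 4 times in the 3′ UTR of Tfrc and 1 time each in the 5′ UTR of Fth1, Ftl1 and Slc40a1. The 4 copies in Tfrc lay within 519 bases of its last exon. Each is given 5′ to 3′ in transcript sense, and capitals mark the 6 bases of the loop.
Tfrc (chr16:32450038-32450065, plus strand, 3′ UTR): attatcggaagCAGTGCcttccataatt
Tfrc (chr16:32450417-32450444, plus strand, 3′ UTR): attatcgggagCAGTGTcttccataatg
Tfrc (chr16:32450482-32450509, plus strand, 3′ UTR): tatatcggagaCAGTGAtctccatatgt
Tfrc (chr16:32450529-32450556, plus strand, 3′ UTR): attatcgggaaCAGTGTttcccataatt
Fth1 (chr19:9960097-9960124, plus strand, 5′ UTR): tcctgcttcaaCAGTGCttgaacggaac
Ftl1 (chr7:45109203-45109230, minus strand, 5′ UTR): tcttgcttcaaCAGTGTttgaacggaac
Slc40a1 (chr1:45964625-45964652, minus strand, 5′ UTR): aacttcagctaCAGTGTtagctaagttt
The Fth1 and Ftl1 stretches were the same at 26 of 28 bases. Only the canonical transcript of each gene was searched and with a strict stem, and a match is a description of the letters and not of binding.

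The 6 libraries tested held 38488341 to 43210858 counts each, and the smallest of the 8, replicate 1 of 4A1 KO, held 31727557. All 8 B cell marker genes listed, among them Ms4a1 and Pax5, had counts in every library. Their sum ran from 11582 to 15678 CPM in control and from 12650 to 16957 CPM in 4A1 KO, but 3 of the 8 (37.5%) were called lower in 4A1 KO (adjusted p under 0.05 and log2 fold change beyond 0.5) and none higher, where 13.7% and 11.6% of all genes were. The 3 were genes of the B cell receptor and its co-receptors, Cd79b (log2 fold change -0.89), Cd22 (-0.76) and Cd79a (-0.67). The change of Tfrc described below was -0.93. No neutrophil marker had a count, and the erythroid markers, which matter here because red cell precursors are rich in Tfrc and heme enzymes, summed to at most 0.395 CPM in any library. Fibroblast markers, which feeder cells would carry, summed to 12.2 to 57.1 CPM in control and 19.7 to 34.2 CPM in 4A1 KO. The 57.1 CPM was control replicate 2, whose pair also carried most of the Ftl1 difference given below. Control replicates 1, 3 and 4 were at 21.7, 12.2 and 12.8 CPM. Of the 8 fibroblast markers tested, 1 (12.5%), Col3a1, was called lower and 1 (12.5%), Fn1, higher, near the shares of all genes. T cell markers summed to at most 1.11 CPM. The part of these other cells in the results was not tested. Eif4a1 itself was counted at 825, 748, 940 and 881 CPM in control replicates 1 to 4 and at 596, 556, 641 and 689 CPM in 4A1 KO, where it fell by 0.44 ± 0.05 on the log2 scale (SE; edgeR, adjusted p = 0.000115). Counts covered all exons of the gene together, so this value does not measure the deleted part alone.

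CPM here are counts scaled to sequencing depth, after TMM normalization, TPM are per length, and a gene was called where its adjusted p was under 0.05 and its log2 fold change beyond 0.5 in either direction. Of the 10 members, 9 had enough counts to be tested and 1, Tfrc, was called, lower in 4A1 KO, where 13.7% of 14218 genes tested were called lower. None was called higher, where 11.6% of genes were. By adjusted p alone, 5 members were lower (Tfrc, Fth1, Aco1, Ncoa4 and Ftl1) and 3 higher (Ireb2, Slc25a37 and Hmox1), while 26.7% of all genes were lower and 26.3% higher by that measure. In the TPM, 1 member was called lower, again Tfrc, and none higher, where 11.8% and 8.42% of the 12976 genes tested were. By adjusted p alone 4 members, Tfrc, Fth1, Aco1 and Ncoa4, were lower in TPM and none higher, where 26.6% and 24.1% of genes were. The median log2 fold change over the 9 members was -0.24 in the counts, and over all genes tested it was 0.01. Below, fell and rose are used of members with an adjusted p under 0.05 in the counts, and the size is given each time.

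**Figure D1:**
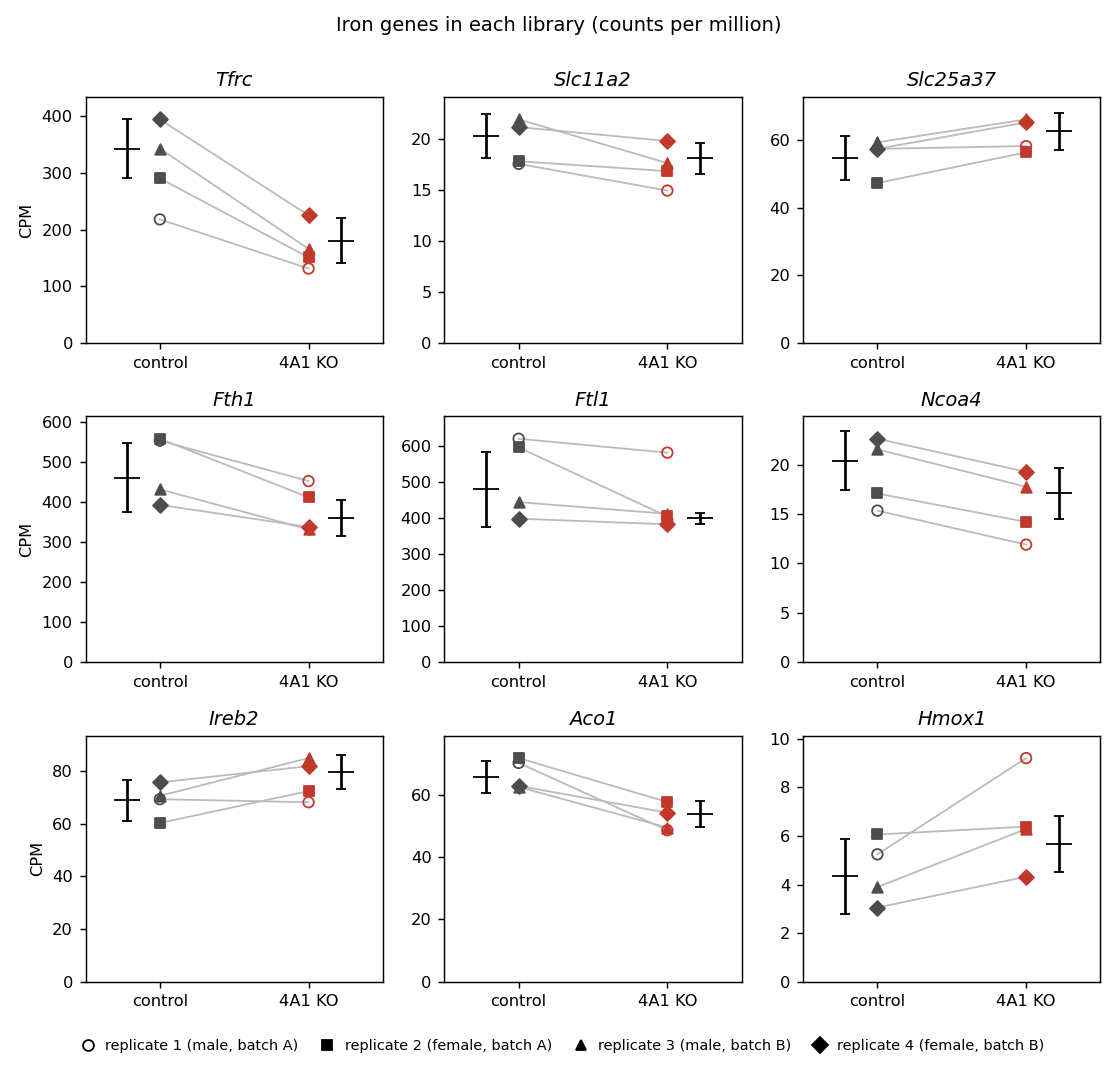
CPM (y axis, from 0) of the 9 tested iron genes in each control and 4A1 KO library, with lines joining libraries of the same sex and batch. Symbols mark the replicate, open circles are replicate 1, and bars are mean ± SD of replicates 2 to 4. Tfrc fell steeply in all 4 pairs, and Fth1, Ftl1, Aco1 and Ncoa4 were lower in all 4 by less.

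Tfrc, the transferrin receptor and the main entry of iron, changed more than any other tested member. Control libraries held 218, 290, 343 and 394 CPM in replicates 1 to 4, and 4A1 KO libraries 131, 151, 166 and 225 CPM. In replicates 2 to 4 the genotypes did not overlap, with means of 342 ± 52.0 CPM in control and 181 ± 39.3 CPM in 4A1 KO (n = 3, SD), a ratio of 0.527. Over all 8 libraries they did overlap, because control replicate 1 was below 4A1 KO replicate 4. The log2 fold change was -0.93 ± 0.06 (SE; 95% interval -1.06 to -0.81; edgeR, adjusted p = 1.09e-05). Within pairs of the same sex and batch, 4A1 KO was lower by 39.8%, 48.1%, 51.6% and 42.9%. Both genotypes had their lower values in batch A and their higher values in batch B, and in each batch the female library was above the male one. The genotype difference itself did not pass a test of difference between sexes (males minus females -0.01, interval -0.27 to 0.24 on the log2 scale, edgeR interaction) or between batches (B minus A -0.09, interval -0.34 to 0.16). In TPM the log2(TPM + 1) difference was -0.88 (limma, adjusted p = 0.000685). In RNA of a whole culture, fewer cells that express a gene and less of its RNA in each cell cannot be told apart, here and for every value that follows. Tfrc lies at chr16:32427556-32451612 on the plus strand.

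Slc11a2, the divalent metal transporter DMT1 that lets endosomal iron into the cytosol, differed less. It was at 17.6, 17.8, 21.9 and 21.2 CPM in control and 14.9, 16.8, 17.6 and 19.8 CPM in 4A1 KO. The value was lower in 4A1 KO in each of the 4 pairs, but the genotypes overlapped and the difference did not pass the test (log2 fold change -0.16 ± 0.08, SE; 95% interval -0.35 to 0.03; edgeR, adjusted p = 0.131). With all 8 libraries it did pass by adjusted p (log2 fold change -0.18, adjusted p = 0.0416), and without replicate 3 it was -0.08 with an adjusted p of 0.585. Transcripts of this gene are known with and without a 3′ iron-responsive element, and the canonical one held no strict match to the pattern.

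Slc40a1, ferroportin, is the only known exporter of iron from cells. It had 4 counts in control replicate 1 and 0 in the other 7 libraries, where a count of 0 allows up to 3 counts, 0.0694 to 0.0946 CPM before TMM scaling. It was not tested, and its iron-responsive element printed above belongs to an mRNA that was scarcely detected in these cells.

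Slc25a37, mitoferrin-1, carries iron into mitochondria. Control libraries held 57.4, 47.3, 59.4 and 57.5 CPM and 4A1 KO libraries 58.3, 56.4, 66.2 and 65.3 CPM. It rose by 0.20 ± 0.06 on the log2 scale (SE; edgeR, adjusted p = 0.0152), with overlap between the genotypes. In replicate 1 the pair differed by 1.46%, against 19.2%, 11.4% and 13.6% in replicates 2 to 4. Gm16867 on chromosome 14 shares 382 identical bases with it and had 2.56% of its counts and 17.8% of its TPM in control. Without replicate 2 the adjusted p was 0.0893, and the TPM difference of 0.16 had an adjusted p of 0.0754 (limma). Slc25a28, mitoferrin-2, a gene outside the 10 that was chosen for mention as the paralog, rose by 0.41 (edgeR, adjusted p = 0.000477).

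The ferritin genes were the highest of the 10 per length. Fth1, the heavy chain with the ferroxidase site, was at 553, 558, 432 and 393 CPM in control and at 452, 412, 332 and 338 CPM in 4A1 KO. Each 4A1 KO library was below its control partner, by 18.2%, 26.2%, 23.2% and 14.0%, although the batches differed so much that the genotypes overlapped. Fth1 fell by 0.35 ± 0.05 on the log2 scale (SE; 95% interval -0.47 to -0.23; edgeR, adjusted p = 0.000631), within the 0.5 limit. Without batch and sex in the fit, the replicate block, the difference was the same size but its adjusted p was 0.0821. In TPM, which are per length, the difference was -0.34 (limma, adjusted p = 0.0029) and replicates 2 to 4 did not overlap.

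Ftl1, the light chain, was at 620, 596, 444 and 398 CPM in control and at 581, 404, 412 and 383 CPM in 4A1 KO. One pair carried most of the difference. Replicate 2 was lower by 32.2% in 4A1 KO, and replicates 1, 3 and 4 by 6.22%, 7.33% and 3.93%. The fitted value was -0.24 ± 0.09 on the log2 scale (SE; edgeR, adjusted p = 0.0421), and without replicate 2 it was -0.08 with an adjusted p of 0.254. In TPM the difference of -0.25 had an adjusted p of 0.0877 (limma). Several processed copies of Ftl1 share its sequence. Of these Ftl1-ps1, on chromosome 13 and 99.6% identical over 910 bases, had 1.5% as many counts as Ftl1 in control, and each of the others had under 0.07% there on average. In the TPM the shares were larger, 11.4% for Ftl1-ps1, 5.81% for Gm15590 and 3.68% for Ftl2-ps of the Ftl1 level in control. How reads that fit several places were counted is not given in the sources used here, so counts can have moved between these genes.

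Ncoa4, the receptor that takes ferritin to the lysosome so that its iron is released, was at 15.3, 17.1, 21.5 and 22.6 CPM in control and at 11.9, 14.2, 17.8 and 19.3 CPM in 4A1 KO. It was lower in every pair, by 22.4%, 16.8%, 17.6% and 14.8%, and it fell by 0.26 ± 0.08 on the log2 scale (SE; edgeR, adjusted p = 0.0194). The adjusted p was 0.0668 without replicate 2 and 0.102 without replicate 3. The pseudogene Ncoa4-ps on chromosome 12 is 99.9% identical over 1878 bases and had 29.0% as many counts as Ncoa4 in control, and in TPM 54.9% of its level. Its own log2 difference was -0.01 (edgeR, adjusted p = 0.923), so the Ncoa4 value is uncertain to the extent that reads were split between them.

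The genes of the iron regulatory proteins moved in opposite directions. Aco1, which encodes IRP1 or, with its iron-sulfur cluster, cytosolic aconitase, was at 70.3, 71.8, 62.6 and 62.9 CPM in control and at 48.7, 57.7, 49.5 and 54.3 CPM in 4A1 KO. The highest 4A1 KO value was under the lowest control value, and no other member was free of overlap over all 8 libraries. By the same measure 19.6% of 14211 genes were lower without overlap and 17.2% higher. Aco1 fell by 0.29 ± 0.06 on the log2 scale (SE; edgeR, adjusted p = 0.00256), and in TPM by 0.28 (limma, adjusted p = 0.00958). The pairs were lower by 30.8%, 19.6%, 20.9% and 13.7% in replicates 1 to 4.

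Ireb2, which encodes IRP2, was at 69.3, 60.3, 70.6 and 75.7 CPM in control and at 68.1, 72.4, 84.9 and 81.9 CPM in 4A1 KO. It rose by 0.21 ± 0.06 on the log2 scale (SE; edgeR, adjusted p = 0.0114) in replicates 2 to 4, where the pairs were higher by 20.2%, 20.3% and 8.13%. Replicate 1 went the other way by 1.66%, and the genotypes overlapped. The adjusted p was 0.08 without replicate 2 and 0.0745 without replicate 3, and in TPM it was 0.0543 (limma). Per length, the ratio of Ireb2 to Aco1 was 0.665, 0.568, 0.757 and 0.805 in control and 0.934, 0.841, 1.14 and 1.01 in 4A1 KO. The genotypes did not overlap, but those of Aco1 alone did not either. The ratio was not tested, and no share over all genes was computed for it.

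Hmox1, the inducible heme oxygenase that frees iron from heme, was the least abundant of the tested members. It had 5.25, 6.06, 3.90 and 3.05 CPM in control and 9.21, 6.39, 6.29 and 4.32 CPM in 4A1 KO, with overlap. It rose by 0.41 ± 0.15 on the log2 scale (SE; 95% interval 0.08 to 0.75; edgeR, adjusted p = 0.0403). The male pairs were higher by 75.6% and 61.3% and the female pairs by 5.33% and 41.5%, but the sexes were not shown to differ (males minus females 0.49, interval -0.04 to 1.02, edgeR interaction, adjusted p = 1). The call depends on the libraries. With all 8 the log2 fold change was 0.51 (adjusted p = 0.00844) and without replicate 2 it was 0.60 (adjusted p = 0.0216), both past the 0.5 limit, while without replicate 3 it was 0.28 (adjusted p = 0.231). Macrophages also express Hmox1, and the 12 macrophage markers listed summed to 9.23 to 15.8 CPM in control and 15.1 to 17.3 CPM in 4A1 KO, with 7 to 11 of them having any count. Of the 5 that could be tested, 3 were higher by edgeR's adjusted p, where 26.3% of all genes were. They were Adgre1 by 0.62 (edgeR, adjusted p = 0.00687), Cd5l by 0.98 (0.0446) and Cd68 by 0.41 (0.0235). Cd5l was scarce, at a mean of 0.393 CPM. Of the 5, 2 were called higher, where 11.6% of all genes were, and none was lower. Their part in the Hmox1 value was not tested.

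**Figure D2:**
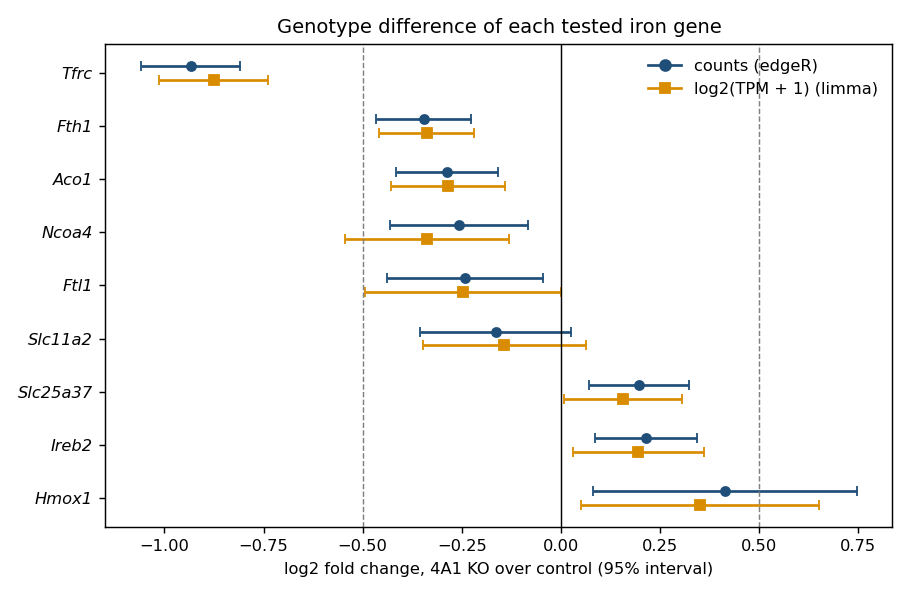
Log2 fold change of 4A1 KO over control (x axis) for each tested iron gene with its 95% interval, from the counts (circles, edgeR) and from log2(TPM + 1) (squares, limma), 3 libraries per genotype. Dashed lines mark 0.5 in either direction, and the Tfrc interval, -1.06 to -0.81 in the counts, is the only one that lies wholly past a line.

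For most members the adjusted p depended on comparing libraries of the same sex and batch. Without that block 2 members, Tfrc (adjusted p = 0.0045) and Aco1 (adjusted p = 0.0373), were lower by edgeR's adjusted p, and none was higher. DESeq2 on the same libraries left 3 lower (Tfrc, Fth1 and Aco1) and 2 higher (Ireb2 and Slc25a37). Over all genes the number with an adjusted p under 0.05 also went down. It was 7538 of 14218 with the block, 5089 of 14218 without it and 5997 of 14348 by DESeq2. Tests of the difference between sexes and between batches passed in 0 members by edgeR, with the smallest unadjusted p, 0.0679, at Hmox1 for sex. Across all genes these tests found 0 for sex and 1 for batch by adjusted p, with 405 and 610 at an unadjusted p under 0.05.

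Levels can be compared between genes only per length. In control the TPM ran from 892 to 1286 for Ftl1, from 491 to 664 for Fth1 and from 82.3 to 160 for Tfrc, and these ranges did not overlap. Aco1 (30.8 to 34.8), Ncoa4 (16.7 to 33.0), Ireb2 (19.8 to 26) and Slc25a37 (19.9 to 24.3) followed, each overlapping the next. Slc11a2 was at 9.82 to 12.4 TPM and Hmox1 at 3.81 to 7.19 TPM. In 4A1 KO the ranges of Ftl1, Fth1 and Tfrc again lay apart from each other and above the rest, and Slc11a2 (8.03 to 11.6 TPM) overlapped Hmox1 (5.35 to 10.4 TPM). Tfrc per Fth1 was 0.127, 0.169, 0.268 and 0.325 in control and 0.0926, 0.124, 0.169 and 0.227 in 4A1 KO, lower in each pair. Ftl1 per Fth1 was 1.99, 1.91, 1.87 and 1.82 in control and 2.20, 1.75, 2.19 and 2.06 in 4A1 KO, higher in pairs 1, 3 and 4 and lower in pair 2. The ferritin genes together took 0.0797% to 0.118% of all counts in control and 0.0722% to 0.103% in 4A1 KO.

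**Figure D3:**
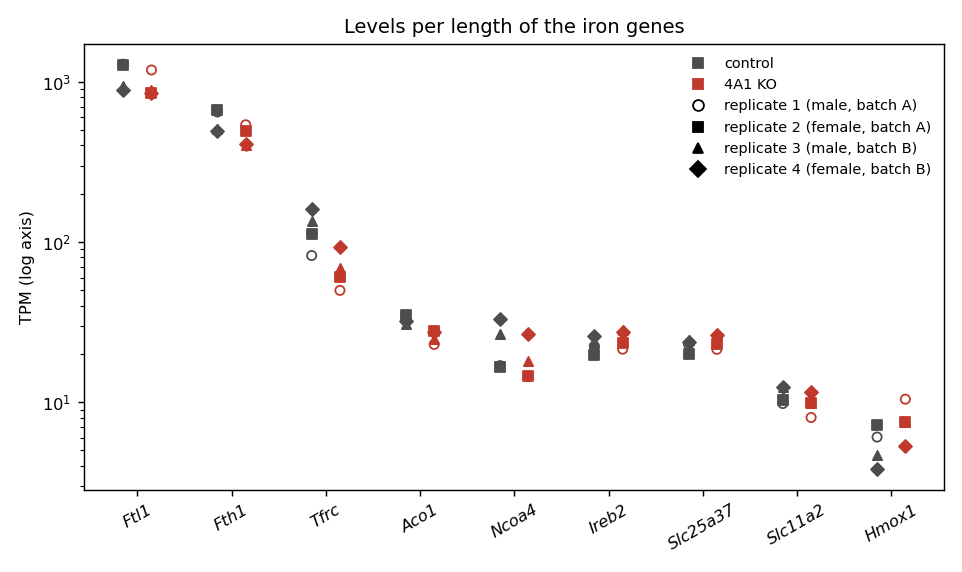
TPM (log axis) of the iron genes in each library, ordered by their control mean, control in grey and 4A1 KO in red, symbols as for the plot of CPM by library. Ferritin light and heavy chain lay at the top, from 406 to 1286 TPM, and Slc40a1, at 0.0654 TPM or less, is left out.

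The genes whose level followed a member most closely over the 8 libraries were found by Pearson's r of log2 CPM among 9563 genes that averaged 5 CPM or more. For Tfrc they were Mgme1, a nuclease of mitochondrial DNA (r = 0.996), Brip1os (0.994), Cpt2 of fatty acid oxidation (0.994), Gm49384 (0.992) and Tbc1d31 (0.992). For Fth1 they were Adipoq, known as the adipocyte hormone adiponectin (r = 0.998), Gm6180 (0.994), R3hdm4 (0.993), Rogdi (0.992) and Csad of taurine synthesis (0.992). The points share genotype, batch and sex, so these are descriptions of a common pattern over 8 libraries. Adipoq was low, at 5.44 to 8.41 CPM in control and 4.09 to 6.30 CPM in 4A1 KO.

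The other iron genes listed numbered 69, of which 55 were tested, and 9 (16.4%) were called lower and 5 (9.09%) higher, near the 13.7% and 11.6% of all genes. Their median log2 fold change was -0.02. Of the 6 tested genes of uptake, reduction and export, 2 fell and were called, and none was called higher, beside 13.7% and 11.6% of all genes. By adjusted p alone 2 were lower and 3 higher, where 26.7% and 26.3% of all genes were. The 3 were Mcoln1 (log2 fold change 0.46), Slc48a1 (0.21) and Slc39a14 (0.20). Hfe, an MHC-like protein that binds the transferrin receptor, was at 2.40, 3.07, 2.43 and 3.44 CPM in control and at 0.760, 0.883, 0.518 and 0.958 CPM in 4A1 KO, without overlap (log2 fold change -1.93 ± 0.19, SE; edgeR, adjusted p = 6.16e-05). Steap3, the endosomal ferrireductase that acts between the transferrin receptor and DMT1, was at 3.07, 3.79, 3.30 and 2.62 CPM in control and at 1.11, 1.19, 1.18 and 1.94 CPM in 4A1 KO, also without overlap (log2 fold change -1.17 ± 0.24, SE; edgeR, adjusted p = 0.00354). Both were low, and Hfe had 21 to 41 counts in the 4A1 KO libraries. The median of the list was 0.01.

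Among the other sensing, storage and chaperone genes, 8 were tested, 3 were called higher and none lower, with a median of 0.37, where 11.6% of all genes were called higher and 13.7% lower. Nfe2l2, which encodes NRF2, an activator of ferritin and Hmox1 transcription, was at 20.8, 16.7, 13.5 and 16.7 CPM in control and at 52.1, 42.2, 31.9 and 27.3 CPM in 4A1 KO (log2 fold change 1.10 ± 0.12, SE; edgeR, adjusted p = 9.14e-05). Pcbp2, a poly(C)-binding protein and iron chaperone, averaged 692 ± 25.9 CPM in control and 1080 ± 69.4 CPM in 4A1 KO (n = 3, SD; log2 fold change 0.64; edgeR, adjusted p = 1.78e-05). Zc3h12a, the endoribonuclease Regnase-1, which is known to cut Tfrc mRNA in immune cells, was at 52.3, 24.5, 19.0 and 22.4 CPM in control and at 72.7, 36.1, 31.5 and 33.1 CPM in 4A1 KO. It rose in each pair (log2 fold change 0.62 ± 0.07, SE; edgeR, adjusted p = 0.000157), with replicate 1 of both genotypes above the others. Its part in the Tfrc value was not tested. Nor was that of Nfe2l2 in the values of Hmox1, which rose, and of the ferritin genes, which fell.

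Of 13 tested genes of heme synthesis, export and breakdown, 4 were called lower and 1 higher, with a median of -0.22, where 13.7% of all genes were called lower and 11.6% higher. Flvcr1, a heme and choline transporter of the plasma membrane, averaged 48.1 ± 4.06 CPM in control and 90.6 ± 2.71 CPM in 4A1 KO (n = 3, SD; log2 fold change 0.92; edgeR, adjusted p = 1.71e-05). Blvrb, a biliverdin reductase, averaged 6.64 ± 1.79 CPM in control and 3.70 ± 1.01 CPM in 4A1 KO (n = 3, SD; log2 fold change -0.84; edgeR, adjusted p = 0.00038). Of the other called genes of the list, Blvra, also a biliverdin reductase, was at -0.75 and Hmox2, the constitutive heme oxygenase, at -0.57, both named after their values were seen. Hmox2 was at -0.49, short of the limit, without replicate 2.

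All 19 genes of mitochondrial iron-sulfur cluster assembly were tested, 3 (15.8%) were called lower, near the 13.7% of all genes, and none higher, where 11.6% were, with a median of 0.01. Abcb10, a transporter of the inner mitochondrial membrane, averaged 29.6 ± 1.18 CPM in control and 16.6 ± 2.88 CPM in 4A1 KO (n = 3, SD; log2 fold change -0.84; edgeR, adjusted p = 0.000195). Fdxr, ferredoxin reductase, fell by 0.55 on the log2 scale (edgeR, adjusted p = 0.000336). Of 9 genes of cytosolic assembly 1 was called, Ndor1, which passes electrons to the early cluster scaffold and rose by 0.62 (edgeR, adjusted p = 6.10e-05), and their median was -0.06, where 11.6% of all genes were called higher.

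**Figure D4:**
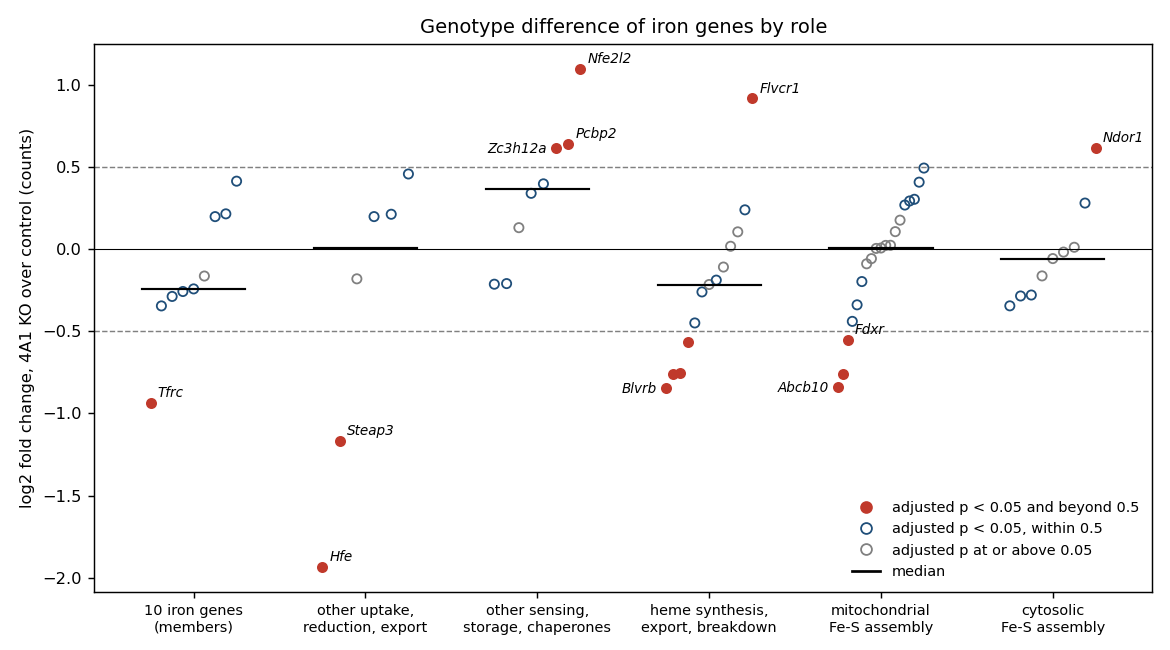
Log2 fold change of 4A1 KO over control from the counts (y axis) for each tested gene, by role, with the median of each list as a black bar and dashed lines at 0.5 in either direction. Filled red points were called, open blue points had an adjusted p under 0.05 within the limit, and the medians ran from -0.24 for the 10 iron genes to 0.37 for the other sensing, storage and chaperone genes.

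Genes outside the 10 that hold the stem-loop pattern were counted in the same way. Of 14 tested genes with it in the 5′ UTR, 2 were called lower and 1 higher, with a median of -0.07. Of 87 with it in the 3′ UTR, 10 were called lower and 9 higher, with a median of 0.02. Over all genes 13.7% were called lower and 11.6% higher.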

How the data were processed

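RNA of 8 libraries, 4 per genotype, was measured, and groups, sex, batch and replicate numbers came from the sample labels. The authors trimmed reads with Trim Galore 0.6.6, mapped them to GRCm39 with HISAT2 2.1.0 and deposited raw counts made with Seqmonk over merged isoforms, strand-specific and paired. The deposited TPM were calculated by the authors with StringTie 2.1.1. Counting error is small at these depths except for genes with few counts, and the standard deviations are between libraries.

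The members and the gene lists were chosen with earlier results of these data known. Named genes are the 10 members, Eif4a1, up to 3 called genes of each iron list with the largest change and a mean of at least 1 CPM, the 5 genes most correlated with Tfrc and with Fth1, and look-alikes (blastn 2.17.0, at least 90% identity over 200 bases). Genes were otherwise named to complete a list, as a paralog or as a marker beside a result, and genes that this rule selects but the text leaves out are not reported here.

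Counts were tested in R 4.3.3 with edgeR 4.0.16 (filterByExpr, TMM, quasi-likelihood test with batch, sex and genotype, Benjamini-Hochberg over all genes, two-sided) in replicates 2 to 4. Genes averaging 1 TPM or more were tested on log2(TPM + 1) with limma 3.58.1 in the same design, and fold changes on that scale understate low genes. Interactions used 8 libraries. The replicate number was taken as a pairing because the labels give same-numbered libraries the same sex and batch. Their deviations correlated at 0.639, 0.613 and 0.494 in replicates 2, 3 and 4. Alternatives were DESeq2 1.42.0 and its size factors, a fit without the replicate block, no filter, the inclusion of all 8 libraries, the removal of 1 replicate at a time and, for TPM, a pseudocount of 0.1. The code was tested on simulated data. Of 53242 identifiers 52647 matched GENCODE M39, the source of sequences and coordinates (GRCm39).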

Additional observations from a re-analysis of the deposited data

Results flagged for a closer look

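In groups of 4 libraries, 5 of the 38 sets of member values examined had 1 library far from the others, where chance gives about 1.9. No excess is read from this, since CPM and TPM share libraries and the values of Slc40a1 were nearly all 0. Replicate 1 of 4A1 KO, a library the study left out, was far above the rest for Ftl1, with its gap at 0.854 of the group's range in CPM and 0.868 in TPM. Control replicate 1 was the only library with counts for Slc40a1, 4 of them, which set it apart in CPM (1) and TPM (0.89). Control replicate 2 was low for Slc25a37 in CPM (0.839), and without that replicate the gene's adjusted p, 0.0152 by edgeR, was 0.0893, against 0.0474 and 0.0232 without replicates 3 and 4.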

How the results depend on the processing

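Tfrc was called lower under all 8 alternatives of the counts (log2 fold change from -0.996 to -0.87) and all 7 of the TPM. The number of members called higher in the counts was 0 and became 1 (Hmox1) with all 8 libraries, and it was 0 to 1 when a replicate was left out (1 without replicate 2). The calls of other iron genes stayed within 8 to 10 lower and 5 to 6 higher. Over all genes, 25.3% were called in either direction in the counts, and 17.2% to 26.7% under the alternatives. No member's direction turned under any alternative. For single members in the counts, 54 of the refitted values stayed on the same side of an adjusted p of 0.05, 17 lost it and 1 gained it, and in the TPM these were 55, 5 and 3. In the counts, more members lost it without the replicate block than under any other alternative. Fewer of all 14218 genes were below 0.05 there too, 5089 against 7538 with the block. Without the block edgeR left Tfrc and Aco1 below 0.05, with Fth1 at 0.0821, Ireb2 at 0.141, Ftl1 at 0.17, Slc25a37 at 0.191, Ncoa4 at 0.221 and Hmox1 at 0.303, and limma left the same 2 in the TPM, where 2 members lost it without the block and 2 without replicate 3. Without the block, the log2 fold changes in the counts stayed near those with it, such as 0.39 against 0.41 at Hmox1 and -0.26 against -0.24 at Ftl1. With 3 libraries per genotype, changes as small as those of most members rest on the pairing by sex and batch. Ncoa4 is further limited by a near-identical pseudogene. Hmox1 had the fewest counts of the tested members, and whether this limits its value was not tested.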
